A study of Mus musculus with 12 samples.

Results

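The GABA-A receptor subunits Gabra2, Gabra3, Gabra4, Gabra5 and Gabrb2 and the chloride transporters Slc12a2 and Slc12a5 were followed across 12 Affymetrix mouse expression arrays. Every probe set whose platform gene symbol was 1 of these 7 names was taken, which gave 20 probe sets of 45101, 15 for the receptor subunits and 5 for the transporters. A probe set is a group of short probes against 1 transcript region, and each was treated on its own. The mice were of the 129/Sv strain and untreated as far as the labels say, and the mutants carried a gene trap on both alleles of Qkf (Qkf gt/gt), another name of Kat6b, a histone acetyltransferase gene. There were 3 arrays in each of 4 groups. Adult Qkf gt/gt dorsal cerebral cortex came from males of 155, 112 and 99 days. Adult wild-type dorsal cerebral cortex came from males of 155, 112 and 101 days. Qkf gt/gt dorsal telencephalon and wild-type dorsal telencephalon came from embryos at E12.5 (days of gestation), whose sex was not labelled. A gene trap can leave some normal transcript, and the trapped allele was present in all cells rather than in 1 cell type. The labels give the parents of the embryos. Embryo 1 of each genotype came from 1 cross (cross 1), and the other 2 embryos of each genotype came from another (cross 2). The sources used here do not say whether an embryonic array stands for 1 embryo or for a pool, and the word embryo is used for such an array. The comparisons ask whether these genes differ between the genotypes at each stage and between the stages.

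GABA-A receptors are chloride channels built from 5 subunits around a pore, usually with alpha and beta subunits that together form the GABA binding sites. Which alpha subunit a receptor holds sets where in the neuron it sits and which drugs act on it. The direction of the chloride current depends on the chloride inside the cell. Slc12a2 (NKCC1) loads chloride into cells together with sodium and potassium, and Slc12a5 (KCC2), a transporter of neurons, moves chloride out together with potassium. In rodent cortex the gain of KCC2 during maturation is known to accompany the change of GABA from a depolarizing to a hyperpolarizing transmitter.

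RefSeq promoter windows (GRCm38.p6, 250 bases before and 50 after an annotated start) were matched by symbol for 6 of the 7 genes, as 10 windows among 32851. The 4 printed are those of the subunit with the largest wild-type stage difference (Gabrb2), the transporter that rose (Slc12a5), the subunit with the smallest stage difference (Gabra2) and the subunit whose windows held no CpG (Gabra3). They read 5′ to 3′ on the gene's strand, and capitals mark TATAAA and GGGCGG on either strand, so that the reverse complements TTTATA and CCGCCC are also in capitals.
Gabrb2, chr11:42420190-42420489, plus strand: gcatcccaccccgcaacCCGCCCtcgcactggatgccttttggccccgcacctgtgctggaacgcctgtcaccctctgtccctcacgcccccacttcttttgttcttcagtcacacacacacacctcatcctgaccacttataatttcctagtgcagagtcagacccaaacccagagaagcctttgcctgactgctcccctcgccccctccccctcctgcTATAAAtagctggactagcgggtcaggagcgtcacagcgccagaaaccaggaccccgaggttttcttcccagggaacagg
Slc12a5, chr2:164960596-164960895, plus strand: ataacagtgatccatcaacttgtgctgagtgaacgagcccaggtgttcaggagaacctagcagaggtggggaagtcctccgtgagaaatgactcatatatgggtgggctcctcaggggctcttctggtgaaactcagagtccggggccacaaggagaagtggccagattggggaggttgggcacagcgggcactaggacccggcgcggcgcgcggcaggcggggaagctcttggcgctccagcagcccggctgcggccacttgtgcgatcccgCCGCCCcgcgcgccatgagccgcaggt
Gabra2, chr5:71095800-71096099, minus strand: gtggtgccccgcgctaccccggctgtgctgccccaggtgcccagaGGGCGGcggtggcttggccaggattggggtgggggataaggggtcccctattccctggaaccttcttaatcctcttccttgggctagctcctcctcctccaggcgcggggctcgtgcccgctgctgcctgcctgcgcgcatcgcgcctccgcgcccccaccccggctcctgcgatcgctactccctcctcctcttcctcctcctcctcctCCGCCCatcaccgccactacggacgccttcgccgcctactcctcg
Gabra3, chrX:72656870-72657169, minus strand: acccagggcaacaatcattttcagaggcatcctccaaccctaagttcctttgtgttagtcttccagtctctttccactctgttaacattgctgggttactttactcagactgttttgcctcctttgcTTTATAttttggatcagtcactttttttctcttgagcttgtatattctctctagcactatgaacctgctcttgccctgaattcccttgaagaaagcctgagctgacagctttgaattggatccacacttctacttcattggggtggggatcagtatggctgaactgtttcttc
The Gabra2 window held 25 CpG dinucleotides, and 81.6% of all windows held fewer. Both Slc12a5 windows held 21 CpG (75.2% of all windows held fewer), the 3 Gabrb2 windows held 11, 9 and 9, Gabra4 held 12 and Gabra5 held 13, against a median of 7 over all windows. Both overlapping Gabra3 windows held 0. TATAAA lay at -30 from the start in 1 Gabrb2 window, and its reverse complement lay at -123 in the Gabra3 window shown. Searched on both strands, TATAAA was present in 3 of the 10 windows, which belonged to 2 genes, and in 13.6% of all windows, and GGGCGG in 5 of the 10 and in 35.7% of all. The cAMP response element TGACGTCA (1.79% of all windows), the E-box variant CAGCTG (16.3%) and the Egr motif (0.612%) were in none of the 10, which says only that these letters are not in these windows.

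The values are log2 expression after GCRMA, a background model built on probe sequence, and the lowest value on each array was 2.19. Between 26.49% and 27.75% of values lay at this floor, so differences from values near it understate a change. Kat6b, the trapped gene, fell in both stages in the probe set 1423508_at, which averaged 7.11 ± 0.17 in adult Qkf gt/gt cortex and 9.58 ± 0.21 in adult wild-type cortex (SD, n = 3 each, limma adjusted p = 0.0242), and 7.06 ± 0.77 in Qkf gt/gt embryos and 11.37 ± 0.08 in wild-type embryos (limma adjusted p = 0.000119). The Kat6b probe set 1447758_x_at averaged 2.20 ± 0.01 in Qkf gt/gt embryos and 5.02 ± 0.22 in wild-type embryos (limma adjusted p = 1.71e-05), its adult values gave an adjusted p of 1, and 1446189_at was at the floor on all arrays. All 7 measured markers of mature excitatory neurons were above 4 on every adult array, and all 10 markers of dorsal progenitors were above 4 on every embryonic array. Nrgn, a neuronal marker, was at the floor in all embryos, and the ventral marker Nkx2-1 was at the floor on all 12 arrays. Of the 4 measured striatal markers, Drd1, Ppp1r1b and Rgs9 were above 4 on every adult array and Drd2 was at the floor on all arrays, and the 4 summed to 8.66 to 8.83 in adult Qkf gt/gt cortex and 8.48 to 8.93 in adult wild-type cortex.

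Between the stages the receptor subunits and Slc12a5 were higher in adult cortex in both genotypes, and the stage differences of Slc12a2 were below 1 log2 unit in size. Of the 20 probe sets, 16 passed the filter of a log2 value over 4 on at least 3 arrays. In wild-type mice 13 of these 16 rose in adults and 1 fell under limma's test with an adjusted p under 0.05, against 34.7% and 44.1% of all 23849 probe sets tested. In Qkf gt/gt mice 13 rose and 0 fell, against 35.6% and 43.2% of all tested. At these 13 probe sets every adult array lay above every embryonic array of its genotype, against 36.0% of all tested in Qkf gt/gt mice and 36.5% in wild types. The filter passes a probe set that is high in adults alone, so the counts describe these 16 probe sets. The median difference of the 16 was 5.44 on the log2 scale in wild types and 5.20 in Qkf gt/gt mice, beside medians over all tested probe sets of -0.17 and -0.15. The 2 contrasts use different arrays. Read from Xist, Qkf gt/gt embryo 3 (12.71) and wild-type embryos 1 and 2 (13.12 and 13.14) were female. Xist stood at 2.19 in the other embryos and at 2.19 to 2.20 in the adult males. The sexes were thus not balanced between the embryonic genotypes. The stages also differ in the tissue dissected, in sex and in the array set. The array names end in 1 code for the 6 adults, in another for 5 embryos and in its own for Qkf gt/gt embryo 1. The signal of actin's 3′ probe set minus its 5′ probe set, a measure of RNA quality, ran from 1.06 to 1.91 in adults. In embryos it ran from 0.71 to 1.03. The same measure for Gapdh overlapped, at -0.15 to 0.26 in adults and -0.19 to -0.03 in embryos. These differences between the stages cannot be told apart.

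**Figure D1:**
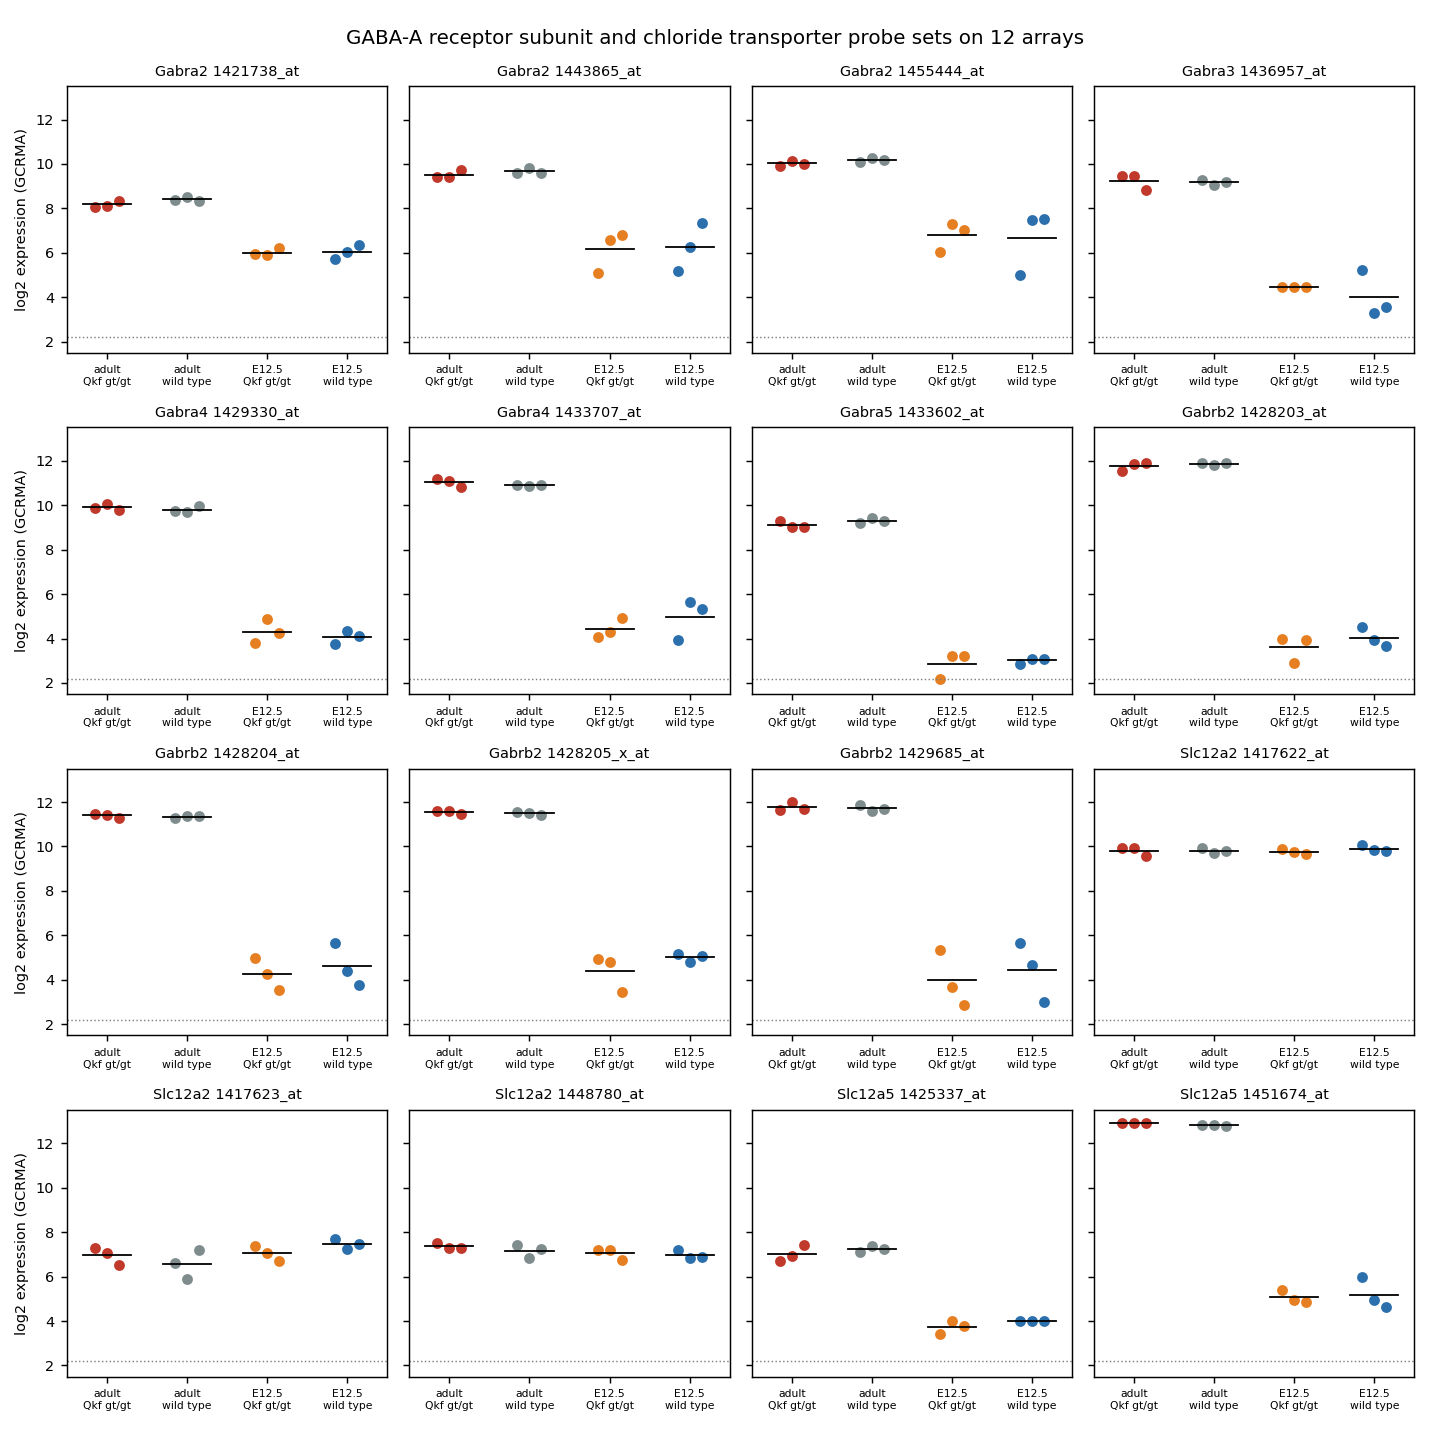
Log2 expression (vertical axis, GCRMA) of the 16 tested probe sets on the 12 arrays, with points for arrays, short lines for group means (n = 3) and a dotted line at the floor of 2.19. The 13 panels of receptor subunits and Slc12a5 show adults of both genotypes above all embryos, and the 3 Slc12a2 panels show group means less than 1 log2 unit apart.

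Gabrb2 encodes the beta2 subunit, a common beta subunit of adult forebrain receptors. Its probe set 1429685_at read 11.63, 11.98 and 11.68 in adult Qkf gt/gt cortex and 11.87, 11.60 and 11.68 in adult wild-type cortex, against 5.35, 3.68 and 2.87 in Qkf gt/gt embryos and 5.64, 4.68 and 3.02 in wild-type embryos. All 6 adults lay above all 6 embryos, and the embryos spread over more than 2 log2 units. The adult level was 222.5-fold that of the embryos in Qkf gt/gt mice (log2 difference 7.80, SE 0.65, limma adjusted p = 5.65e-07) and 154-fold in wild types (7.27, SE 0.65, limma adjusted p = 1.03e-06). These folds rest on low embryonic values, from 2.87 to 5.64, and moved with single embryos. The Qkf gt/gt fold went to 359.2 without Qkf gt/gt embryo 1. The wild-type fold went to 233.3 without wild-type embryo 1 and to 94.2 without wild-type embryo 3. The other tested probe sets, 1428203_at, 1428204_at and 1428205_x_at, were designed on 1 shared sequence and are not independent. They rose by 8.17, 7.15 and 7.16 in Qkf gt/gt mice and by 7.84, 6.74 and 6.49 in wild types. At 1428203_at wild-type embryo 1 (4.50) was the only embryo above 4, so that probe set passed the filter through adults. The fifth probe set, 1450319_at, did not pass the filter and stood between 3.87 and 4.48 in adult Qkf gt/gt cortex and between 3.94 and 4.32 in adult wild-type cortex, against 3.19 to 3.86 in Qkf gt/gt embryos and 3.15 to 3.86 in wild-type embryos. The probe sets of Gabrb2 thus differ in how far they separate the stages.

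Gabra5 encodes the alpha5 subunit, known for receptors outside synapses that carry a tonic current. Its single probe set 1433602_at read 9.31, 9.00 and 9.03 in adult Qkf gt/gt cortex and 9.20, 9.42 and 9.28 in adult wild-type cortex, against 2.19, 3.20 and 3.20 in Qkf gt/gt embryos and 2.84, 3.10 and 3.10 in wild-type embryos. Every embryo was close to the floor, and Qkf gt/gt embryo 1 was at it. Gabra5 rose by 6.25 in Qkf gt/gt mice and by 6.29 in wild types (SE 0.24 each, limma adjusted p = 6.49e-10 and 6.4e-10), and both values may understate the change.

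Gabra4 encodes the alpha4 subunit, which often pairs with the delta subunit in receptors outside synapses. Its probe set 1433707_at read 11.16, 11.07 and 10.84 in adult Qkf gt/gt cortex and 10.92, 10.87 and 10.90 in adult wild-type cortex, against 4.08, 4.31 and 4.92 in Qkf gt/gt embryos and 3.96, 5.65 and 5.31 in wild-type embryos. The adult values lay within 0.32 of each other and far above the embryos. It rose by 6.59 in Qkf gt/gt mice and by 5.93 in wild types (SE 0.36 each, limma adjusted p = 1.55e-08 and 3.89e-08). The probe set 1429330_at rose by 5.60 and by 5.72 in the same 2 contrasts, with embryonic values from 3.77 to 4.90.

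Gabra3 encodes the alpha3 subunit, known from rodent cortex as a subunit prominent before and around birth. Its probe set 1436957_at read 9.46, 9.44 and 8.85 in adult Qkf gt/gt cortex and 9.26, 9.06 and 9.21 in adult wild-type cortex, against 4.44 in each of the 3 Qkf gt/gt embryos and 5.22, 3.28 and 3.55 in wild-type embryos. The 3 mutant embryonic values were identical (4.4428), for a reason that was not tested. Adults and embryos did not overlap, and at E12.5 the wild types lay on both sides of the mutants. It rose by 4.81 in Qkf gt/gt mice and by 5.16 in wild types (SE 0.40 each, limma adjusted p = 5.22e-07 and 2.82e-07). Without wild-type embryo 1 the wild-type difference was 5.76. The probe set 1421263_at stayed below the filter on all arrays.

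Gabra2 encodes the alpha2 subunit, known for synapses on the axon initial segment of cortical neurons. Its probe set 1455444_at read 9.92, 10.15 and 10.00 in adult Qkf gt/gt cortex and 10.10, 10.26 and 10.20 in adult wild-type cortex, against 6.02, 7.31 and 7.02 in Qkf gt/gt embryos and 5.02, 7.49 and 7.52 in wild-type embryos. The embryos stood well above the floor, and the low embryo of each genotype was embryo 1. It rose by 3.24 in Qkf gt/gt mice and by 3.51 in wild types (SE 0.56 each, limma adjusted p = 0.000264 and 0.000141). Without wild-type embryo 1 the wild-type difference was 2.68. The probe set 1443865_at rose by 3.34 and 3.41 and the probe set 1421738_at by 2.17 and 2.36 in the same 2 contrasts. The stage differences of the 3 tested Gabra2 probe sets were the smallest among the 11 tested probe sets of the receptor subunits. The remaining probe sets, 1420299_at and 1449807_x_at, were at the floor on all 12 arrays, share 1 target sequence and were not tested.

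The transporters differed from each other between the stages. Slc12a5, which moves chloride out of neurons, read 12.93, 12.91 and 12.91 at 1451674_at in adult Qkf gt/gt cortex and 12.81, 12.82 and 12.80 in adult wild-type cortex, against 5.39, 4.96 and 4.85 in Qkf gt/gt embryos and 5.96, 4.93 and 4.62 in wild-type embryos. The adult arrays were tightly grouped. It rose 230.3-fold in Qkf gt/gt mice (log2 difference 7.85, SE 0.28, limma adjusted p = 3.71e-10) and 199.5-fold in wild types (7.64, SE 0.28, limma adjusted p = 4.7e-10). The probe set 1425337_at, designed on the same sequence, rose by 3.29 in Qkf gt/gt mice and by 3.25 in wild types (SE 0.19 each), and its embryonic values lay between 3.43 and 4.01.

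Slc12a2, which loads chloride into cells, read 9.93, 9.94 and 9.58 at 1417622_at in adult Qkf gt/gt cortex and 9.94, 9.69 and 9.78 in adult wild-type cortex, against 9.90, 9.74 and 9.65 in Qkf gt/gt embryos and 10.07, 9.84 and 9.78 in wild-type embryos. The 4 groups overlapped. The stage difference was 0.05 in Qkf gt/gt mice (95% interval -0.24 to 0.35) and -0.09 in wild types (-0.39 to 0.20). At 1448780_at it was 0.30 (-0.08 to 0.69) in Qkf gt/gt mice and 0.19 (-0.19 to 0.58) in wild types. At 1417623_at the readings were 7.29, 7.06 and 6.50 in adult Qkf gt/gt cortex and 6.61, 5.89 and 7.20 in adult wild-type cortex, against 7.38, 7.07 and 6.69 in Qkf gt/gt embryos and 7.68, 7.22 and 7.47 in wild-type embryos. This probe set fell by 0.89 in wild types (SE 0.32, limma adjusted p = 0.0231), while the difference in Qkf gt/gt mice was -0.09 (SE 0.32, limma adjusted p = 0.796). The test of the difference between these 2 values gave an adjusted p of 0.916. The wild-type call was lost without adult wild type 2 (-0.55, adjusted p = 0.102), without wild-type embryo 1 (-0.78, adjusted p = 0.0711) and without wild-type embryo 3 (-0.89, adjusted p = 0.0507), and with no filter on low values (adjusted p = 0.0733). The 3 probe sets of Slc12a2 share 1 design sequence and disagree in this contrast.

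Because levels of different probe sets cannot be compared, the transporters were set against each other only as a shift within arrays. The log2 value of Slc12a5 (1451674_at) minus that of Slc12a2 (1417622_at) averaged 3.10 ± 0.19 in adult Qkf gt/gt cortex and -4.70 ± 0.16 in Qkf gt/gt embryos, a shift of 7.79, and 3.01 ± 0.13 in adult wild-type cortex and -4.73 ± 0.55 in wild-type embryos, a shift of 7.73 (SD, n = 3 each). At these probe sets the shift was nearly all from Slc12a5, since Slc12a2 moved by 0.05 and -0.09. The size of the shift belongs to this pair of probe sets. The second Slc12a5 probe set, 1425337_at, rose by less. It averaged 7.02 in adult Qkf gt/gt cortex and 3.74 in Qkf gt/gt embryos, and 7.25 and 4.00 in the wild-type groups. At 1417623_at Slc12a2 fell by 0.89 in wild types.

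**Figure D2:**
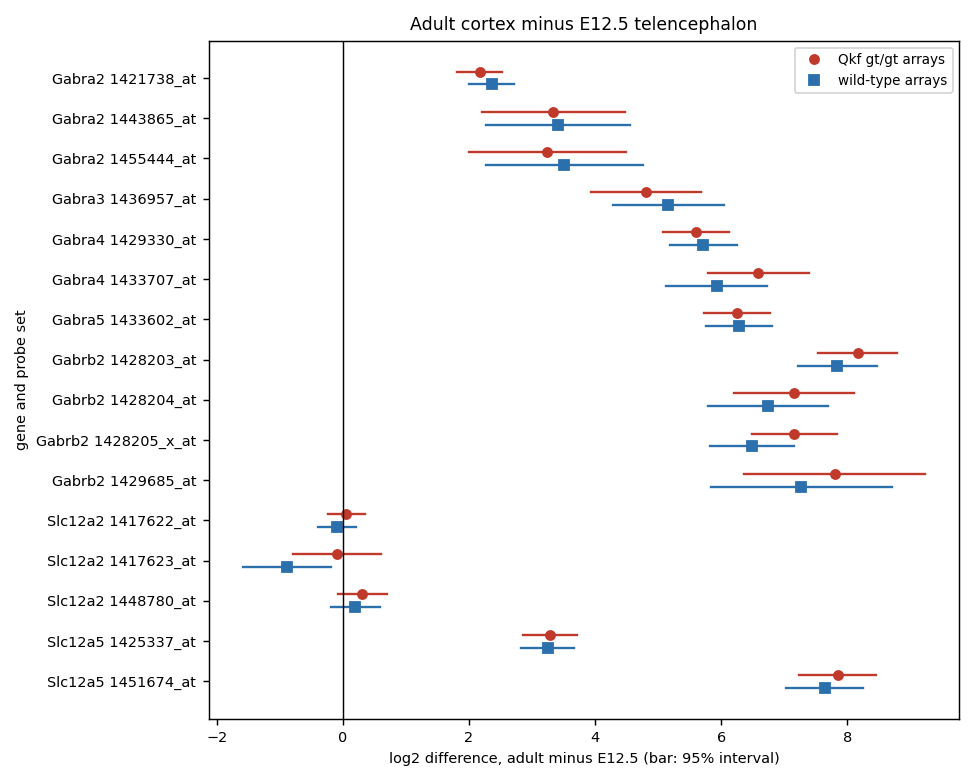
Log2 difference, adult cortex minus E12.5 telencephalon, for the 16 tested probe sets (horizontal axis), as circles for Qkf gt/gt arrays and squares for wild-type arrays with 95% intervals from the fit over all 12 arrays. The 13 probe sets of the receptor subunits and Slc12a5 lie between 2.17 and 8.17, and the 3 Slc12a2 probe sets between -0.89 and 0.30.

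Markers of several cell types moved with these stage differences. On the log2 scale the 7 measured markers of mature excitatory neurons summed to 16.15 to 16.20 in adult Qkf gt/gt cortex and 16.12 to 16.21 in adult wild-type cortex. They summed to 11.81 to 12.77 in Qkf gt/gt embryos and 11.69 to 13.05 in wild-type embryos. Snap25, at 15.44 to 15.62, was by far the brightest of the 7 in adults. All adults lay above all embryos at 5 of the 7, whereas Tbr1 (10.03 to 10.91 in adults, 10.58 to 10.79 in embryos) and Neurod6 (10.03 to 10.42 in adults, 10.20 to 12.58 in embryos) overlapped. The 10 dorsal progenitor markers went the other way, each with all adults below all embryos, and summed to 11.68 to 11.73 in adult Qkf gt/gt cortex and 11.48 to 11.66 in adult wild-type cortex, against 15.73 to 15.83 in Qkf gt/gt embryos and 15.71 to 15.90 in wild-type embryos. The 10 interneuron markers summed to 13.85 to 14.05 and 13.82 to 14.01 in the same adult groups, against 7.39 to 9.74 in Qkf gt/gt embryos and 7.56 to 10.26 in wild-type embryos. The 7 astrocyte markers summed to 15.22 to 15.52 and 15.10 to 15.35 in the adult groups, against 12.49 to 12.77 and 12.45 to 12.74 in the embryonic groups. Gja1 sets the embryonic sums (12.31 to 12.63 in embryos, 12.61 to 12.98 in adults) and overlapped. All adults lay above all embryos at the other 6 astrocyte markers. The 7 oligodendrocyte markers summed to 14.46 to 14.78 and 14.67 to 15.09, against 7.97 to 8.23 and 8.21 to 8.62. The part of these cell types in the stage differences was not tested, and in bulk tissue fewer cells of a type and less RNA per cell cannot be told apart.

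The order of the 4 group means was set by stage for most probe sets. For each of the 13 probe sets that rose, both adult groups stood above both embryonic groups, and the mutants and wild types of a stage overlapped in their values, with the exception of the adults at 1451674_at of Slc12a5. In adults the mutants had the higher mean at 7 of these 13 and the wild types at 6. In embryos the mutants had the higher mean at 3 (1455444_at of Gabra2, 1436957_at of Gabra3 and 1429330_at of Gabra4) and the wild types at 10. For Slc12a2 the highest mean was in wild-type embryos at 1417622_at and 1417623_at and in adult Qkf gt/gt cortex at 1448780_at, and neighbours in that order overlapped.

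Other genes of GABA signalling were counted in wild types by the probe set of each gene with the highest mean, and the counts stand against 34.7% of all tested probe sets higher and 44.1% lower in adults. All differences given for these lists have a limma adjusted p under 0.05 unless stated. Of 10 matched genes for other GABA-A subunits, 4 passed the filter, and all 4 did so through the adult arrays alone, with wild-type embryonic means from 2.34 to 3.13, so that only a higher adult level could be seen. Gabrb1, the beta1 subunit, was higher by 7.16 at its counted probe set 1443205_at and by 7.74 at 1435095_at, Gabrd, the delta subunit, by 6.15, Gabrg3, a gamma subunit, by 4.87, and Gabrg1, another gamma subunit, by 3.01.

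Of the 6 tested genes of GABA synthesis, packaging, uptake and breakdown 6 rose and 0 fell, among them Gad1 (7.27) and Gad2 (4.43), which make GABA, and Slc32a1 (5.59), which fills vesicles with it. Both tested genes of the GABA-B list rose, Gabbr1, a receptor subunit, by 3.71 at its counted probe set 1455021_at and by 4.61 at 1437188_at, and Kctd8, an auxiliary subunit, by 2.27. Of the 4 tested glycine receptor and transporter genes 3 rose and 0 fell, namely Glra3 (4.61) and Glrb (3.98), subunits of the glycine receptor, and Slc6a9 (2.54), a glycine transporter. Several of these probe sets also stood below 4 in embryos and passed the filter through adults.

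The lists of transporters, anchors and regulators were mixed. Of 3 tested genes for other SLC12 transporters, Slc12a7 (KCC4), a potassium-chloride cotransporter, fell by 5.55, with means of 2.63 in adult wild-type cortex and 8.17 in wild-type embryos. Slc12a4 (KCC1) rose by 0.49 (limma adjusted p = 0.0271), a call lost without adult wild type 1 (adjusted p = 0.121) and without wild-type embryo 3 (adjusted p = 0.107), and Slc12a9 did not pass the test.

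Of 16 tested anchoring and trafficking genes 12 rose and 2 fell. Gabarapl1, of the family that carries receptors to the membrane, rose by 4.20 at its counted probe set 1416418_at and by 4.41 at 1416419_s_at. Trak1, a kinesin adaptor, rose by 0.76 at its counted probe set 1428327_at and by 3.29 at 1456755_at, and Gabarapl2 by 0.90 at 1423187_at and by 2.86 at 1441376_at. The Trak1 probe set 1456755_at averaged 2.41 in wild-type embryos. It passed the filter through adults alone, so only a higher adult level could be seen there. Rdx, which anchors alpha5 receptors, fell by 3.14. The called probe sets of Mkln1, Gphn, Ubqln1 and Zdhhc3 disagreed in direction within the gene. Mkln1 fell by 1.54 at its counted probe set 1416733_at and rose by 1.88 at 1436096_at. Gphn, encoding the scaffold gephyrin, rose by 1.16 and 1.35 at 1426462_at and 1426463_at and fell by 1.40 at 1430038_at. Ubqln1 rose by 0.63 at its counted probe set 1424368_s_at and fell by 0.94 at 1419385_a_at. Zdhhc3 rose by 0.32 at its counted probe set 1423646_at and by 1.36 at 1455368_at. It fell by 0.47 at 1423647_a_at and by 1.36 at 1438897_at.

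Of 14 tested regulators of cation-chloride cotransport 8 rose and 3 fell. Ntrk2, the receptor of BDNF, rose by 1.75 at its counted probe set 1420838_at, and its other probe sets ran from 1.08 at 1446712_at to 8.47 at 1458622_at. Bdnf rose by 5.73 at 1422168_a_at and by 1.06 at 1422169_a_at, and Car7, a carbonic anhydrase, by 5.67 at 1443824_s_at and by 2.76 and 2.80 at its other probe sets. The 3 that fell were Rest (-4.38), a repressor of neuronal genes, Oxsr1 (-0.71), a kinase that activates NKCC1, and Ppp1ca (-0.56), a phosphatase subunit. Neto2, a partner of KCC2, rose by 0.86 at its counted probe set 1436309_at and fell by 0.97 at 1457344_at, and Stk39 did not pass the test at its counted probe set (-0.10) and fell by 1.43 at 1431434_at. Bdnf at 1422168_a_at and Car7 at 1443824_s_at had wild-type embryonic means of 2.37 and 2.25. Both passed the filter through adults alone, so only a higher adult level could be seen there. Ntrk2 at 1458622_at averaged 3.81 in wild-type embryos, also below the filter value of 4.

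In adult cortex no probe set of these genes was called between the genotypes. Limma called 0 of the 16, against 0.0294% of all 23849 tested (7 probe sets), and 0 of the 16 had an unadjusted p under 0.05, against 4.64% of all. The differences of Qkf gt/gt minus wild type were above 0 at 10 and below 0 at 6, with a median of 0.05 beside 0.02 over all tested. The narrowest 95% interval was that of Slc12a2 at 1417622_at, from -0.28 to 0.31 around 0.02, and the widest that of Gabrb2 at 1429685_at, from -1.39 to 1.49 around 0.05. The intervals, which use a spread pooled over both stages, leave room for changes of that size.

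The only tested probe set whose adult groups did not overlap was 1451674_at of Slc12a5, against 9.82% of all tested probe sets. All 3 adult Qkf gt/gt arrays (12.91 to 12.93) were above all 3 adult wild-type arrays (12.80 to 12.82). The difference was 0.11 (SE 0.28, limma adjusted p = 1), or 1.08-fold, and it was 0.12, 0.09 and 0.11 within the pairs of mutant and wild type closest in age. That SE is pooled over both stages and does not measure the adult spread alone. The SD was 0.015 in adult Qkf gt/gt and 0.012 in adult wild-type cortex, against 0.28 in Qkf gt/gt and 0.70 in wild-type embryos. The fit of adult arrays alone gave an adjusted p of 0.798. The second Slc12a5 probe set, 1425337_at, had a difference of -0.23 (SE 0.19, limma adjusted p = 1), so the 2 probe sets point opposite ways.

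Gabra3 showed a similar disagreement. Its low probe set 1421263_at read 2.76, 2.72 and 2.71 in adult Qkf gt/gt cortex, against 3.96, 3.78 and 3.35 in adult wild-type cortex, with no overlap. Every one of these values is below the filter of 4, and the embryos of both genotypes stood at 2.19 to 2.71. In a fit with no filter the difference was -0.97 (unadjusted p = 0.00038, limma adjusted p = 0.245). At 1436957_at, which is far brighter in adults, the difference was 0.07 (SE 0.40, limma adjusted p = 1).

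For the other members the adult differences were -0.22, -0.16 and -0.16 for the 3 Gabra2 probe sets 1421738_at, 1443865_at and 1455444_at, 0.12 and 0.12 for those of Gabra4, -0.19 for Gabra5, between -0.10 and 0.06 for the 4 of Gabrb2, and 0.02, 0.38 and 0.21 for those of Slc12a2. Each of their 95% intervals included 0. The choroid plexus marker Ttr read 15.16 on adult Qkf gt/gt array 3, against 6.78 to 9.18 on the other adult arrays, and the 7 markers of that list summed to 8.15 to 15.17 in adult Qkf gt/gt cortex and 7.63 to 9.38 in adult wild-type cortex, in a list where Ttr is by far the brightest. On that array Kl (3.95), Folr1 (4.19), Aqp1 (3.12) and Clic6 (4.77) were also above all other adult arrays, while Msx1 was not and Otx2 was at the floor on all adult arrays. The signal of actin's 3′ probe set minus its 5′ probe set, a measure of RNA quality, was 1.91 and 1.47 on adult Qkf gt/gt arrays 1 and 2, against 1.06 to 1.13 on the other adult arrays. Leaving out any 1 array gave 0 called members.

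In the embryonic telencephalon no probe set of these genes was called either. Limma called 0 of the 16, against 0.0797% of all tested (19 probe sets), and 0 had an unadjusted p under 0.05, against 4.59% of all. The differences were above 0 at 4 and below 0 at 12, with a median of -0.14 beside -0.01 over all tested. No probe set had groups without overlap, against 7.46% of all tested. The lowest p was at 1428205_x_at of Gabrb2, where Qkf gt/gt embryos read 4.92, 4.79 and 3.45 and wild-type embryos 5.14, 4.81 and 5.06 (difference -0.62, SE 0.31, unadjusted p = 0.0693, limma adjusted p = 1). The low value was that of Qkf gt/gt embryo 3.

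The 4 tested Gabrb2 probe sets had embryonic differences between -0.62 and -0.35, and 3 of them share a design sequence. Gabra4 differed by -0.54 at 1433707_at and by 0.24 at 1429330_at, Gabra3 by 0.43, Gabra5 by -0.15, and Gabra2 by -0.03, -0.09 and 0.11. Slc12a2 differed by -0.13, -0.41 and 0.10 at 1417622_at, 1417623_at and 1448780_at, and Slc12a5 by -0.27 at 1425337_at and -0.10 at 1451674_at. All had a limma adjusted p of 1. The widest 95% interval was that of Gabrb2 at 1429685_at, from -1.92 to 0.96.

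**Figure D3:**
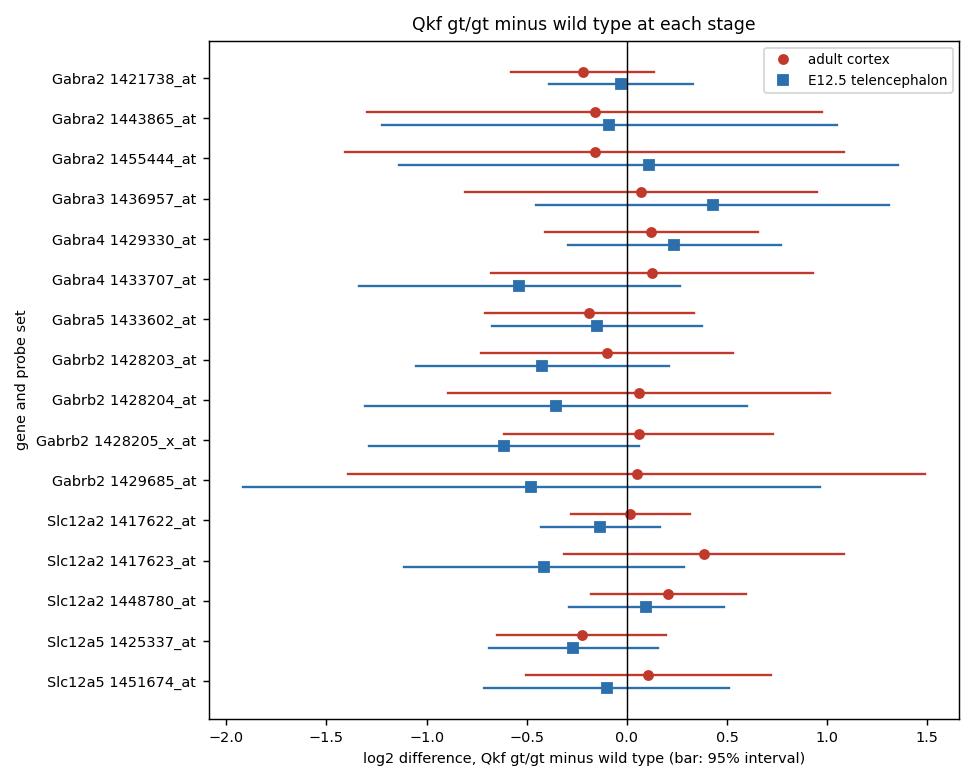
Log2 difference, Qkf gt/gt minus wild type, for the 16 tested probe sets (horizontal axis), as circles for adult cortex and squares for E12.5 telencephalon with 95% intervals from the fit over all 12 arrays. Every interval includes 0, with adult differences from -0.23 to 0.38 and embryonic differences from -0.62 to 0.43.

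The mutant difference was also compared between the stages. Limma called 0 of the 16 for the adult minus the embryonic difference, against 0.0210% of all tested, and 0 had an unadjusted p under 0.05, against 5.43% of all. The largest was 0.80 at 1417623_at of Slc12a2 (SE 0.45, limma adjusted p = 0.916), from 0.38 in adults and -0.41 in embryos. Next were 0.67 at 1428205_x_at of Gabrb2 and 0.66 at 1433707_at of Gabra4 (limma adjusted p = 0.916 and 0.927).

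No gene of the 7 other lists was called in either mutant contrast, over 49 tested genes. In adults the lowest unadjusted p of each list fell on Gabrg1 (0.21), Slc12a4 (-0.16), Rdx (0.30 at 1448236_at), Slc32a1 (0.12), Gabbr1 (0.28 at 1422051_a_at), Stk39 (0.39), a kinase that activates NKCC1, and Slc6a9 (0.15 at 1431812_a_at), as log2 differences. In embryos it fell on Gabrb1 (-0.19 at 1435095_at), Slc12a9 (-0.58 at 1442599_at), Zdhhc3 (-0.30 at 1455368_at), which palmitoylates receptor subunits, Abat (-0.73), which breaks down GABA, Kctd8 (0.30), Stk39 (-0.70 at 1431434_at) and Slc6a9 (0.40 at 1417636_at). The counted probe sets of Gabrb1 (0.21 at 1443205_at) and Zdhhc3 (0.07 at 1423646_at) had the opposite sign in embryos. The lowest adjusted p among these was 0.853, for Rdx in adults.

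Among the embryos the crosses did not overlap at 10 of the 16 tested probe sets, against 26.7% of all tested. Qkf gt/gt embryo 1, of cross 1, was also the only array of its array set. The 2 embryos of cross 1 lay below all 4 of cross 2 at 1455444_at and 1443865_at of Gabra2 (cross 1 minus cross 2, -1.81 and -1.61), at both Gabra4 probe sets (-1.03 at 1433707_at and -0.61 at 1429330_at) and at Gabra5 (-0.63). They lay above all 4 of cross 2 at 1429685_at, 1428204_at and 1428203_at of Gabrb2 (1.93, 1.34 and 0.64), at 1451674_at of Slc12a5 (0.83) and at 1417622_at of Slc12a2 (0.23). These are differences of means on the log2 scale, noticed in the data and given with no test. At 1429685_at the cross 1 embryos read 5.35 in Qkf gt/gt and 5.64 in wild type, and the cross 2 embryos 3.68 and 2.87 in Qkf gt/gt and 4.68 and 3.02 in wild type.

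The genotype difference within a cross was not the same in both for several of them. Gabra2 at 1455444_at differed by 1.00 within cross 1, where each genotype is 1 array, and by -0.34 within cross 2. Slc12a5 at 1451674_at differed by -0.57 within cross 1 and by 0.13 within cross 2. Gabra4 at 1433707_at differed by 0.12 and -0.87, and Gabrb2 at 1429685_at by -0.29 and -0.57. A fit without both cross 1 embryos called 0 members between the genotypes.

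Cell type markers moved with the cross, not all of a list in 1 direction. The crosses did not overlap at 26.7% of all tested probe sets, counted in either direction. Of the 7 measured ventral telencephalon markers 5 were higher in cross 1, 0 were lower and 2 overlapped, and the list summed to 9.78 in the Qkf gt/gt embryo and 10.37 in the wild-type embryo of cross 1, against 6.64 to 7.85 in cross 2. Dlx2, of this list, read 8.43 and 9.04 in cross 1, against 3.20 to 5.80 in cross 2, and Nkx2-1 was at the floor in all embryos. Of the 5 that were higher, Dlx6 was near the floor in all embryos (2.87 and 2.84 in cross 1, against 2.64 to 2.67). Gsx2 read 2.23 and 4.03 in cross 1 and was at the floor in cross 2. Of the 10 interneuron markers, 4 were higher in cross 1 (Gad1, Gad2, Dlx1 and Dlx5), Sst was lower (4.26 and 3.10 in cross 1, against 4.55 to 5.77) and 5 overlapped, with sums of 9.74 and 10.26 in cross 1, against 7.39 to 8.27. Gad1 read 7.34 and 7.86 in cross 1, against 3.23 to 5.28.

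Of the 7 excitatory neuron markers, 3 were lower in cross 1 (Slc17a7, Neurod6 and Snap25), Camk2a was higher (5.06 and 6.46, against 3.05 to 4.09) and 3 overlapped, Tbr1 among them. Neurod6, the brightest of that list in most embryos, read 10.60 and 10.20 in cross 1, against 11.92 to 12.58, and the list summed to 11.81 and 11.69, against 12.52 to 13.05. Of the 7 choroid plexus markers Ttr and Aqp1 were lower in cross 1 and 5 overlapped, with sums of 10.94 and 10.98, against 13.55 to 14.10, which Ttr sets (10.78 and 10.78 in cross 1, against 13.53 to 14.06). The part of these cells in the differences between the crosses was not tested.

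**Figure D4:**
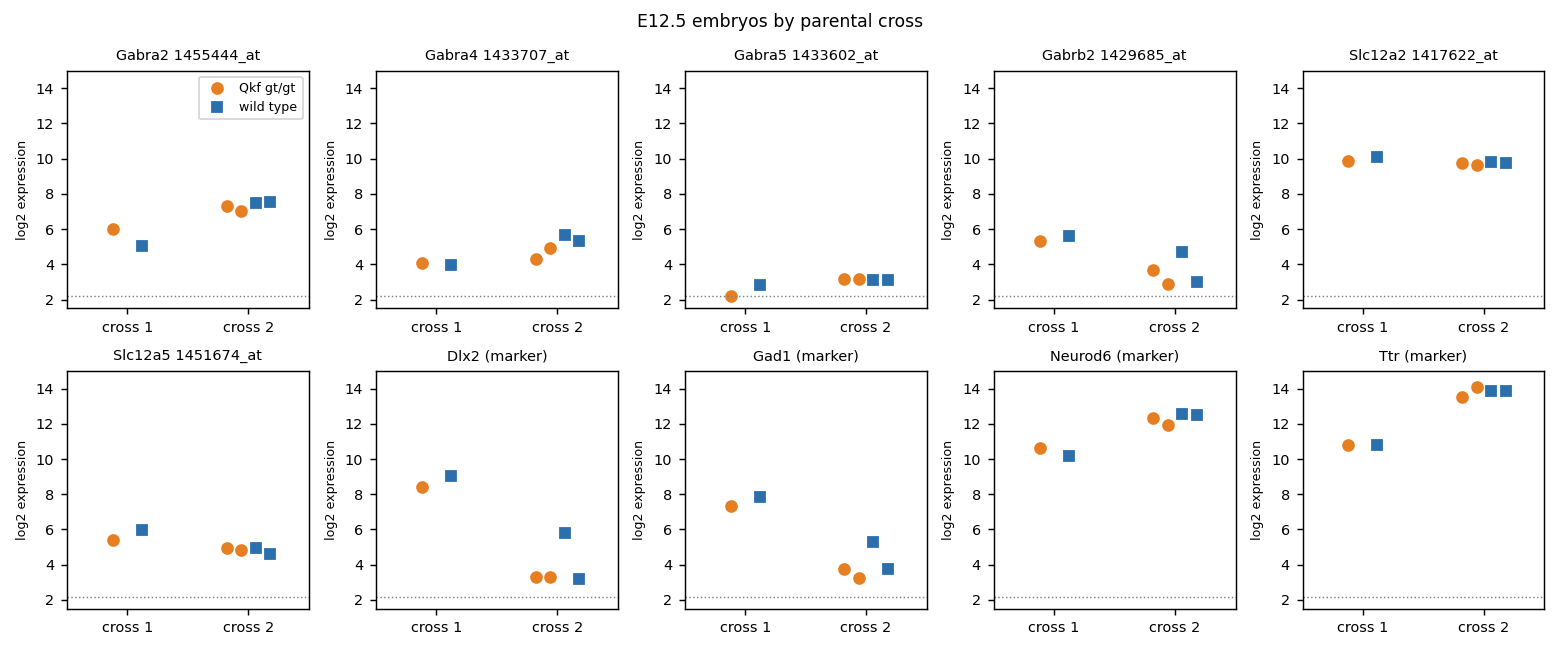
Log2 expression (vertical axis, GCRMA) in the 6 E12.5 embryos by parental cross (horizontal axis), for 6 member probe sets and 4 marker genes, with circles for Qkf gt/gt, squares for wild type and a dotted line at the floor. Each member probe set is the one of its gene with the largest difference between crosses that did not overlap. At these probe sets cross 1 lies below cross 2 for Gabra2, Gabra4, Gabra5, Neurod6 and Ttr and above it for Gabrb2, Slc12a2, Slc12a5, Dlx2 and Gad1. Some other tested probe sets of Gabra2, Gabrb2 and Slc12a2 overlapped, as did 1425337_at of Slc12a5 (cross 1 minus cross 2, -0.22).

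The genes whose pattern was most like that of each member were named by the smallest root-mean-square difference of log2 values over the 12 arrays, after each probe set was centred on its own mean, among 19765 probe sets. This likeness is a description, and it rests mostly on the 2 stages. For Gabra2 (1455444_at) they were Nkain2 (0.189), Adcyap1r1 and Cyria, and for Gabra3 (1436957_at) Pla2g4e (0.280), Atxn1 and Adam23. For Gabra4 (1433707_at) they were Syngr1 (0.159), Cnnm1 and Lzts3, and for Gabra5 Clu (0.179), Dtna and Prkcb. For Gabrb2 (1428205_x_at) they were Rgs17 (0.255), Mgll and Gfra2. For Slc12a5 (1451674_at) they were Calb1 (0.165), Slc1a2 and Septin8, and for Slc12a2 (1417622_at) Xpot (0.0479), Pafah1b1 and St13. Calb1 averaged 11.72 in adult Qkf gt/gt cortex and 11.77 in adult wild-type cortex, against 4.05 in Qkf gt/gt embryos and 3.96 in wild-type embryos. Xpot stood between 10.07 and 10.25 in all 4 group means.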

How the data were processed

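RNA of 12 samples was measured on Affymetrix arrays. The deposited log2 expression values were used unchanged. They were made with GCRMA, per the submitters' processing notes. The GCRMA version and settings were not given in the sources used here. Array medians ran from 3.64 to 3.74, and correlations between arrays of a group over all probe sets from 0.989 to 0.997. The number of arrays and the spread between them set the precision. Probe sets were named by the platform annotation, and 34945 had 1 symbol.

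Each non-control probe set with a log2 value over 4 on at least 3 arrays (23849) was fitted with limma (version 3.58.1, R 4.3.3; lmFit, eBayes) as 4 group means with 8 residual degrees of freedom. P-values were adjusted by Benjamini-Hochberg over all tested probe sets and called under 0.05. They set each difference against the spread between these arrays, pooled over the 4 groups. The main fit treats arrays as independent and does not model the parental cross. The fit was tested on simulated data. Members and lists were chosen with earlier results of these data known, and groups were taken from the samples' labels.

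All member probe sets were named, and from each list the lowest p in each mutant contrast and up to 3 of the largest called differences each way between wild-type stages. The 3 most alike genes were named per member. Listed genes with no matched probe set were not analysed here.

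Deviations from group means correlated at 0.42 in cross 1, at 0.12 to 0.18 in cross 2, and at -0.28 to -0.19 between crosses, and the labelled parents are what pairs the embryos. The closest adult ages gave 0.18, -0.0012 and 0.20, so a pairing of adults was not clear. Alternatives varied the filter, scaling, arrays, array weights, variance model, block and embryo sex, read from Xist.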

Additional observations from a re-analysis of the deposited data

How the results depend on the processing

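The counts of called members kept their size and direction: 0 in each of the 2 genotype contrasts under 24 alternatives and in their difference under 23, between 13 and 14 of the stage contrast in wild types and 12 to 13 in Qkf gt/gt mice. The replicate block (age pair and cross) left 0 members called in the genotype contrasts and in their difference. Over all probe sets it called 2 in adults, 12 in embryos and 2 for the difference, against 7, 19 and 5 without it. Array weights called 19, 86 and 21 of all probe sets in the same contrasts, the fit without cross 1 called 2, 54 and 22, and the fit with no filter 11, 29 and 15. Arrays of the compared groups alone gave 0 and 3.

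Small differences that were not called changed sign. Under quantile normalization the adult difference of Slc12a2 at 1417622_at was -0.0075 over all arrays and -0.0041 within stages. Array weights gave 0.035 for Slc12a5 at 1451674_at and -0.083 for Gabra2 at 1455444_at in embryos, and embryo sex as a covariate gave -0.043 for Gabra2. Without both cross 1 embryos the embryonic differences were 0.0997 for Gabra5 at 1433602_at, 0.13 at 1451674_at and -0.34 at 1455444_at, and the Qkf gt/gt stage difference of Slc12a2 at 1417623_at was 0.073.

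Leaving out 1 array at a time gave these ranges. In adults, Qkf gt/gt minus wild type ran from -0.31 to 0.011 for Slc12a4 (1417446_at), -0.045 to 0.13 for Slc12a2 (1417622_at), -0.0074 to 0.51 for Gabbr1 (1422051_a_at), -0.17 to 0.022 and -0.059 to 0.12 for Gabrb2 (1428203_at and 1429685_at) and -0.034 to 0.27 for Gabra3 (1436957_at). In embryos it ran from -0.20 to 0.13 at 1421738_at (Gabra2), -0.77 to 0.17 at 1428204_at (Gabrb2), -0.057 to 0.49 at 1429330_at (Gabra4), -1.19 to 0.12 at 1429685_at, -0.32 to 0.19 at 1433602_at (Gabra5), -0.62 to 0.46 at 1443865_at, -0.38 to 0.29 at 1451674_at (Slc12a5) and -0.72 to 0.53 at 1455444_at. The Qkf gt/gt stage difference ran from -0.0065 to 0.17 at 1417622_at and from -0.27 to 0.13 at 1417623_at. The cause of these changes was not tested.

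The wild-type fall of Slc12a2 at 1417623_at was also lost without both cross 1 embryos (-0.78, adjusted p = 0.072), and the rise of Slc12a4 under quantile normalization over all arrays (0.40, adjusted p = 0.0723), with no filter (adjusted p = 0.0632) and with the compared arrays alone (adjusted p = 0.0605). Embryonic values of Gabra5 (2.19 to 3.20) lie at or near the floor. At tested probe sets those of Gabra3, Gabra4, Gabrb2 and Slc12a5 reach down to 3.28, 3.77, 2.87 and 3.43. Such low values limit small differences there, as do 3 arrays a group.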
